A study of Mus musculus with 12 samples.

Results

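The SLC25 genes encode the mitochondrial carrier family, the proteins that move nucleotides, phosphate, organic acids, amino acids, cofactors and iron across the inner mitochondrial membrane. Every gene of the deposited table whose symbol starts with Slc25a was taken, which gave 44 of 37187 genes, and expression did not enter that choice. They were followed in LSK cells, the mouse bone marrow cells sorted for Sca-1 and c-Kit and against lineage markers, which hold the blood stem cells and early progenitors. The 4 genotypes, with 3 libraries each, were wild type (WT), the single mutants labelled Tet2 KO or Traf6 KO, and the double mutant labelled Tet2;TRaf6 dKO (below, dKO). TET2 is an enzyme that oxidises methylated cytosine, and TRAF6 is a ubiquitin ligase of innate immune signalling. The title of the series links TRAF6 to the activity of the transcription factor MYC in acute myeloid leukaemia. The labels give neither the driver of the deletions nor the age, sex, strain or number of animals, and all 4 groups share the sort and the low-input SMART-Seq preparation.

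A carrier of this family is built from a repeat of paired membrane helices and works by turns: it opens to the intermembrane space, binds its substrate, and then opens to the matrix. The adenine nucleotide carriers exchange cytosolic ADP for ATP made in the matrix, the phosphate carrier brings in the phosphate for that ATP, and the other members tie the citric acid cycle, amino acid breakdown, haem and iron-sulphur cluster synthesis and fat oxidation to the cytosol. In the bone marrow the family is best known for mitoferrin and the glycine carrier, which feed haem synthesis in red cell precursors.

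Values are a normalised signal, that is, the reads of a gene divided by a size factor of its library. The reads could be recovered, at 22169673 to 53921402 per library. The normalised signal summed to 39973892 in dKO 3 and to 25557760 to 28916082 in the other libraries, so the deposited values of dKO 3 have a larger total. A gene was tested with limma on log2(value + 1) where it reached 10 in at least 3 libraries, and it is called higher or lower where the Benjamini-Hochberg adjusted p over all 14045 tested genes was under 0.05. As a check of the labels, Tet2 and Traf6 reads were lower than in any WT library in all 3 dKO libraries, but the library labelled Tet2 KO 1 held Tet2 at WT level and the library labelled Traf6 KO 1 held Traf6 at WT level (525 to 783 in WT against 667.7 for Tet2, and 1935 to 3006 against 2474 for Traf6). Xist was at 990.3 or more in each Tet2 KO and Traf6 KO library and at 17.0 or less in each WT and dKO library. Genotype and this Xist difference therefore cannot be told apart in any comparison below except dKO against WT. The 5 sex genes (Xist and the Y-linked Eif2s3y, Ddx3y, Kdm5d and Uty) summed to 9727 to 10811 in WT and 5656 to 10841 in dKO. Their sum was 3879, 1024 and 1156 in Tet2 KO and 7348, 2102 and 1167 in Traf6 KO. Whether Tet2 KO 1 and Traf6 KO 1 hold mixed material was not tested. The 8 gate genes were all present, and Kit was at 4099 to 11935 in dKO against 44484 to 47837 in WT. The gate genes did not move together: in dKO against WT limma called 1 higher and 3 lower. With the length and GC trend described below removed, 2 were higher and 2 lower. Marker genes of lineages that the gate should lack moved too. Of 6 mast cell and basophil markers 5 were higher in dKO against WT and 2 in Traf6 KO against WT by limma, and their sum was 1355 to 2117 in WT, 1311 to 1770 in Tet2 KO, 3581 to 9374 in Traf6 KO and 5985 to 10448 in dKO. In dKO against WT limma also called higher 2 of 6 B cell, 1 of 2 tested T and NK cell, 3 of 10 erythroid, 1 of 6 megakaryocyte and 1 of 9 neutrophil and monocyte markers, and lower 2 of 6 megakaryocyte, 2 of 3 stromal and endothelial and 1 of 9 neutrophil and monocyte markers. The 6 T and NK cell markers with reads (Cd3e was at 0 throughout) summed to 7398 to 49507 in dKO against 3420 to 4588 in WT, and the 10 erythroid markers found in the table summed to 84224 to 120008 in dKO, 45152 to 56999 in WT and 61566 to 183572 in Tet2 KO. Of all tested genes limma called 21.9% higher and 26.5% lower in dKO against WT. The part of these marker genes in the results below was not tested. In these bulk libraries fewer cells of a type and less RNA per cell cannot be told apart.

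Of the 44 carriers, 39 were tested and 37 reached a value of 10 in all 12 libraries. The 5 not tested were Slc25a2, Slc25a18, Slc25a31, Slc25a34 and Slc25a48. Slc25a2, an ornithine carrier, had no read in any library, and Slc25a31, the adenine nucleotide carrier of the testis, had reads in 1 library. The other 3 stayed under 5 apart from Slc25a48 at 13.6 in Tet2 KO 2. Slc25a41 and Slc25a42 were tested without reaching 10 everywhere. Outside the symbol rule, the NAD carrier Slc25a51 and its relative Slc25a53 stood in the table under the older symbols Mcart1 and Mcart6, and limma called neither on the deposited values. After the removal of a length and GC trend described below, Mcart1 was called higher in dKO (1.20, adjusted p = 0.00419 against WT, 1.29, adjusted p = 0.0138 against Tet2 KO and 0.77, adjusted p = 0.0480 against Traf6 KO).

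Levels differed over 3 orders of magnitude between carriers. Per kilobase of transcript the WT means were led by the adenine nucleotide carrier Slc25a5 with 6097, ahead of the phosphate carrier Slc25a3 with 4129.9, the oxoglutarate carrier Slc25a11 with 3137, the adenine nucleotide carrier Slc25a4 with 2933, the glutathione carrier Slc25a39 with 2519 and the citrate carrier Slc25a1 with 2335. Slc25a41 closed the tested list with 5.17 per kilobase. The 44 genes together took 0.264% to 0.282% of the signal in WT, 0.268% to 0.317% in Tet2 KO, 0.265% to 0.308% in Traf6 KO, and dKO reached 0.344%, 0.378% and 0.365%. The share was thus higher in each dKO library than in any library of the other genotypes. Abundant carriers weigh most in it. The means of Slc25a5, Slc25a4 and Slc25a3 were 7561, 5646 and 6657 in WT and 25081, 12659 and 17472 in dKO. Of the 39 tested carriers limma called 11 higher and 7 lower in dKO against WT, as given below, so the share does not stand for each carrier.

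In neither single knockout did limma call a carrier when fitted on all 12 libraries. In Tet2 KO against WT, limma called 0 of 39 (0.413% of all tested genes), with 3 carriers at an unadjusted p under 0.05. On the recovered reads edgeR called 0 and DESeq2 called 2 higher, Slc25a21 and Slc25a47 (it called 0.655% of its genes higher). With Tet2 KO and WT fitted alone, limma called 2 carriers higher. The share of all tested genes called in that fit was not computed. In Traf6 KO against WT 0 of 39 were called by limma (0.271% of all tested genes), with 3 at an unadjusted p under 0.05, and edgeR and DESeq2 each called 0. Leaving out any library of the compared groups, including the 2 whose targeted gene was at WT level, left both counts at 0.

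The double knockout differed from WT at 18 of the 39 carriers, 11 higher and 7 lower by limma. That is 46.2% of the carriers, and 48.3% of all tested genes were called in the same comparison (21.9% higher and 26.5% lower), so the family was called about as often as other genes. Against Tet2 KO, 7 carriers were higher and 5 lower (35.3% of all tested genes were called, 15.5% higher and 19.9% lower), and against Traf6 KO 8 were higher and 4 lower (38.0%, 17.3% and 20.7%). The 3 comparisons share the dKO libraries. The carriers called in all 3 were, on the higher side, Slc25a3, Slc25a4, Slc25a5, Slc25a17, Slc25a20 and Slc25a39, and on the lower side Slc25a24 and Slc25a36. In the interaction, the dKO change beyond the sum of both single changes, limma called 0 of 39 (0.221% of all tested genes), with 6 at an unadjusted p under 0.05, and edgeR and DESeq2 called 0. Without dKO 1 the interaction called 2 carriers higher and 3 lower. The share of all tested genes called in that fit was not computed, so these calls cannot be set against those of other genes.

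The counts moved with single libraries. Shares of all tested genes were not computed with a library left out, so the counts below show only how far the calls depend on it. Without WT 2 the dKO against WT count was 7 higher and 3 lower, without dKO 3 it was 7 and 5, without WT 3 it was 8 and 4, and without dKO 1 it was 11 and 12. Against Tet2 KO the count was 1 and 0 without Tet2 KO 1, 3 and 5 without dKO 2, 4 and 3 without dKO 3, and 9 and 13 without dKO 1. Against Traf6 KO it was 2 and 2 without Traf6 KO 1, 2 and 1 without Traf6 KO 3, 5 and 3 without dKO 2, 3 and 2 without dKO 3, and 10 and 9 without dKO 1. Slc25a3, Slc25a4, Slc25a5, Slc25a17, Slc25a22, Slc25a24, Slc25a36, Slc25a39 and Slc25a47 stayed called in dKO against WT whichever library of either group was left out, and Slc25a38 was lost each time.

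**Figure D1:**
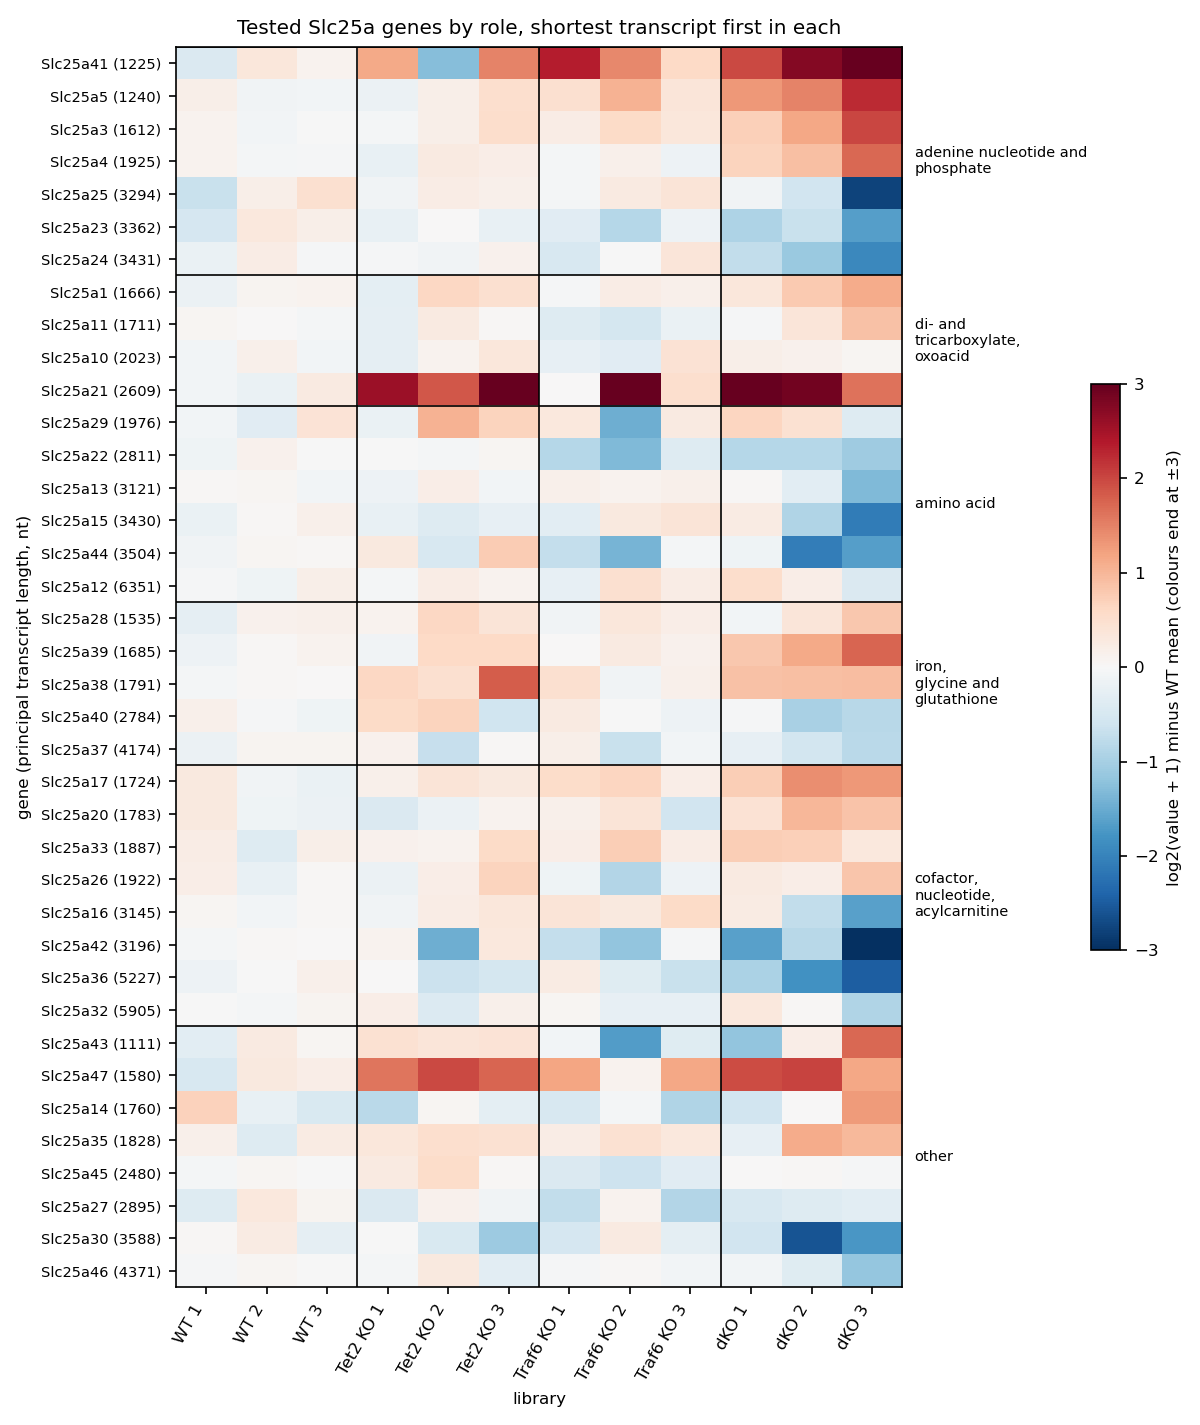
Each row is a tested carrier (1 of the 39 is not shown), with its principal transcript length in nucleotides, grouped by role and ordered by length within a role. Columns are the 12 libraries and colour is log2(value + 1) minus the WT mean. In dKO the upper, shorter rows of most roles are red and the lower, longer rows blue, most deeply in dKO 3.

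Transcript length ordered the dKO changes within the family. The 11 carriers called higher against WT had principal transcripts of 1225 to 2609 nucleotides, and the 7 called lower had 2811 to 5227, with no overlap. Of the 18 carriers of at most 2000 nucleotides 10 were higher and 0 lower, and of the 14 above 3000 nucleotides 0 were higher and 6 lower. The same held for the rest of the transcriptome: 51.6% of all tested genes of at most 2000 nucleotides were higher and 2.55% lower, against 4.998% higher and 50.7% lower above 3000. The rank correlation of the log2 change with length over the 39 carriers was -0.80 against WT, -0.73 against Tet2 KO and -0.78 against Traf6 KO, where the points share libraries and are not independent.

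The size of the length difference varied among the dKO libraries. The median log2 difference from the WT mean was 0.65 for the short and -0.11 for the long carriers in dKO 1, 0.90 and -0.70 in dKO 2, and 1.14 and -1.65 in dKO 3. Across the 9 other libraries the short carriers' medians ran from -0.08 to 0.49 and the long carriers' from -0.25 to 0.07. RNA integrity values are not given in the sources used here, and whether RNA quality has a part in the length pattern was not tested, so the deposited dKO values carry this limit. Because of the pattern, each carrier called below is also given after a smooth trend on length and GC content was taken off every library. With the trend removed, 7 carriers were higher and 2 lower in dKO against WT (25.5% of all tested genes of known length were called, 14.7% higher and 10.7% lower). It was 1 and 1 against Tet2 KO (11.5%, 6.75% and 4.76%), and 3 and 1 against Traf6 KO (15.3%, 6.89% and 8.44%). Of the 18 dKO against WT calls, 7 stayed called in the same direction. They were Slc25a3, Slc25a4, Slc25a5, Slc25a21 and Slc25a39 on the higher side and Slc25a24 and Slc25a36 on the lower side. Against WT, 8 carriers had the opposite sign with the trend removed. Of these Slc25a32 was called higher on that scale, and Slc25a11, Slc25a14, Slc25a26, Slc25a28, Slc25a37, Slc25a43 and Slc25a46 were called on neither. Leaving out dKO 2 from the trend-removed fit left 3 higher and 1 lower, and leaving out dKO 3 left 8 and 0. Of the 18 calls, 3 stayed in the same direction on that scale without dKO 2, and 6 without dKO 3.

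**Figure D2:**
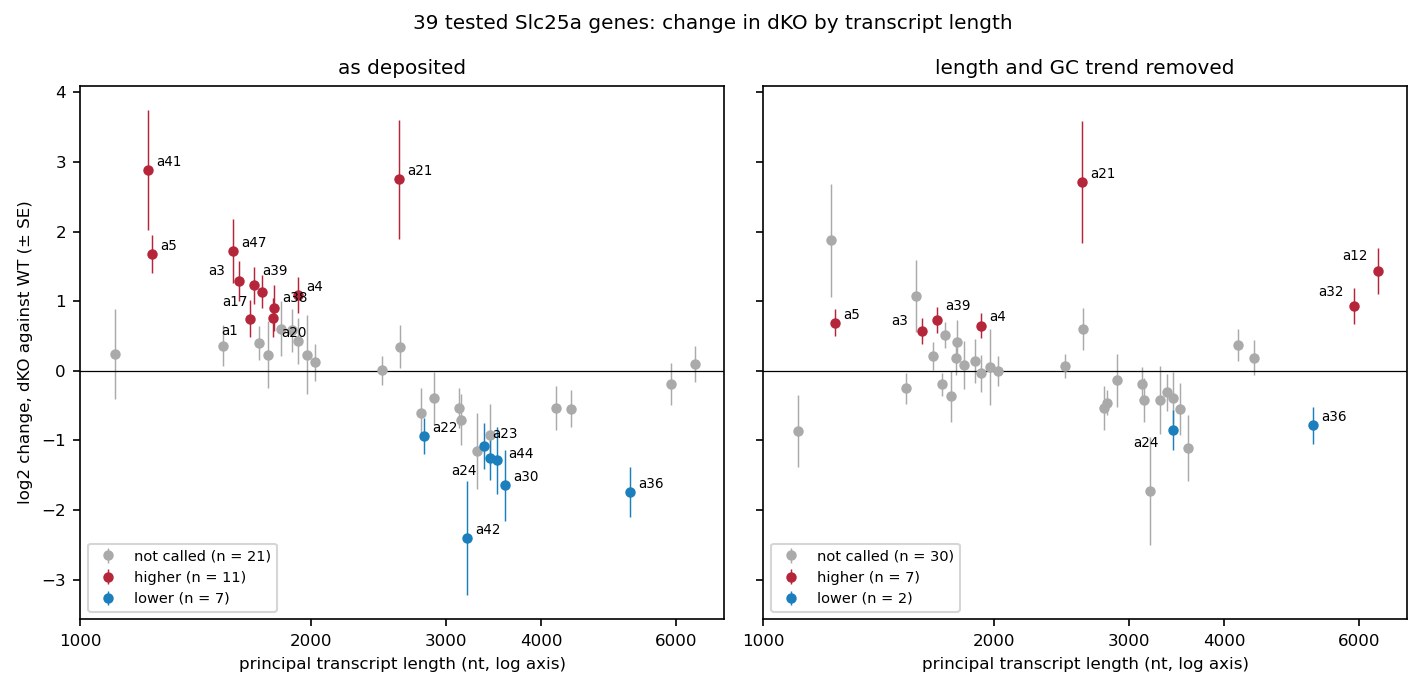
Log2 change in dKO against WT (± SE) of the 39 tested carriers against principal transcript length (log axis), on the left from the deposited values and on the right after trend removal, with called carriers labelled without their Slc25 prefix. The 11 higher carriers all lie at 2609 nucleotides or less and the 7 lower ones at 2811 or more, and 7 higher and 2 lower remain past the threshold when the trend is removed.

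Of the 7 tested carriers of adenine nucleotides and phosphate, 4 were higher in dKO against WT and 2 lower, and with the trend removed 3 were higher and 1 lower. The counts by role here and below stand beside 21.9% of all tested genes higher and 26.5% lower. With the trend removed these shares were 14.7% and 10.7%. The higher ones were Slc25a5 (adenine nucleotide translocator 2, the main form of dividing cells), Slc25a4 (translocator 1, the main form of heart and muscle), Slc25a3 (the phosphate carrier) and the calcium-independent ATP-Mg/phosphate carrier Slc25a41. The lower ones were 2 of the 3 calcium-regulated ATP-Mg/phosphate carriers, Slc25a24 and Slc25a23. The 4 higher ones have transcripts of 1225 to 1925 nucleotides and the 2 lower ones of 3362 and 3431.

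Slc25a5 stood at 8546, 7039 and 7097 in WT, with Tet2 KO at 6646, 8489.9 and 10741, Traf6 KO at 10463, 15628 and 9678 and dKO at 18586, 21275 and 35381. Every dKO library lay above every other library, and every Traf6 KO library lay above every WT library. The log2 change in dKO against WT was 1.68 ± 0.28, adjusted p = 0.000790 by limma, a fold of 3.20, and 0.69, adjusted p = 0.0193 with the trend removed. In Traf6 KO against WT the log2 difference was 0.63 ± 0.28, adjusted p = 0.614. The gene lies on the X chromosome and has an annotated processed copy, Slc25a5-ps, so some of its reads are uncertain in origin.

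Slc25a4 read 6053, 5408 and 5477 in WT, with Tet2 KO at 4858, 6745 and 6497, Traf6 KO at 5382, 6249 and 5056 and dKO at 8936, 10489 and 18551. The dKO libraries lay above the rest, and the 9 other libraries overlapped. Its log2 change against WT was 1.09 ± 0.26, adjusted p = 0.00497 by limma, and with the trend removed 0.65, adjusted p = 0.0211. It was the carrier that stayed called with the trend removed in all 3 dKO comparisons on the higher side (against Tet2 KO 0.68, adjusted p = 0.0343, against Traf6 KO 0.65, adjusted p = 0.0324). Against Tet2 KO and Traf6 KO these trend-removed calls were lost without dKO 2, and the one against Traf6 KO was also lost without dKO 3.

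Slc25a3 read 7178, 6245 and 6549.8 in WT, with Tet2 KO at 6388, 7514 and 9632, Traf6 KO at 7739.9, 9960.3 and 8464 and dKO at 10864, 14852 and 26699. Again no library of another genotype reached the dKO range, and dKO 3 was far above the other two. The log2 change against WT was 1.29 ± 0.29, adjusted p = 0.00359 by limma and 0.57, adjusted p = 0.0413 with the trend removed.

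Slc25a41 was scarce, at 4.26, 7.997 and 6.73 in WT, with Tet2 KO at 14.8, 1.94 and 19.2, Traf6 KO at 35.5, 18.6 and 9.76 and dKO at 27.2, 47.0 and 107. These values come from few reads, and Traf6 KO 1 lay within the dKO range. The log2 change against WT was 2.88 ± 0.86, adjusted p = 0.0152 by limma, it was 1.87, adjusted p = 0.105 with the trend removed, and without dKO 3 the call was lost.

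Slc25a24, a carrier that loads the matrix with adenine nucleotides when cytosolic calcium rises, read 2166, 2902 and 2409 in WT, with Tet2 KO at 2426, 2307 and 2712, Traf6 KO at 1782, 2438 and 3208 and dKO at 1494, 1143 and 649. All 3 dKO libraries were below the other 9. The log2 change was -1.26 ± 0.31, adjusted p = 0.00587 against WT by limma. With the trend removed it stayed narrowly under the threshold in each dKO comparison (against WT -0.85, adjusted p = 0.0452, against Tet2 KO -0.95, adjusted p = 0.0499, against Traf6 KO -0.93, adjusted p = 0.0453). Against Tet2 KO and Traf6 KO these trend-removed calls were lost without dKO 2, and also with the replicate number added to the fit. Against WT and against Traf6 KO the trend-removed call was lost without dKO 3.

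Slc25a23 read 533, 938 and 859 in WT and 399, 471 and 239 in dKO, with 642 to 759.9 in Tet2 KO and 419 to 675 in Traf6 KO. Its log2 change against WT was -1.08 ± 0.33, adjusted p = 0.0169 by limma, lost without WT 2 or WT 3 and with the trend removed (-0.31, adjusted p = 0.426). Slc25a25, the third calcium-regulated form, read 469.7, 837 and 1038 in WT, with Tet2 KO at 693 to 863, Traf6 KO at 709 to 974 and dKO at 692, 497 and 107. It was not called (-1.15 ± 0.54, adjusted p = 0.0943), and dKO 3 lay far below the other dKO libraries.

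**Figure D3:**
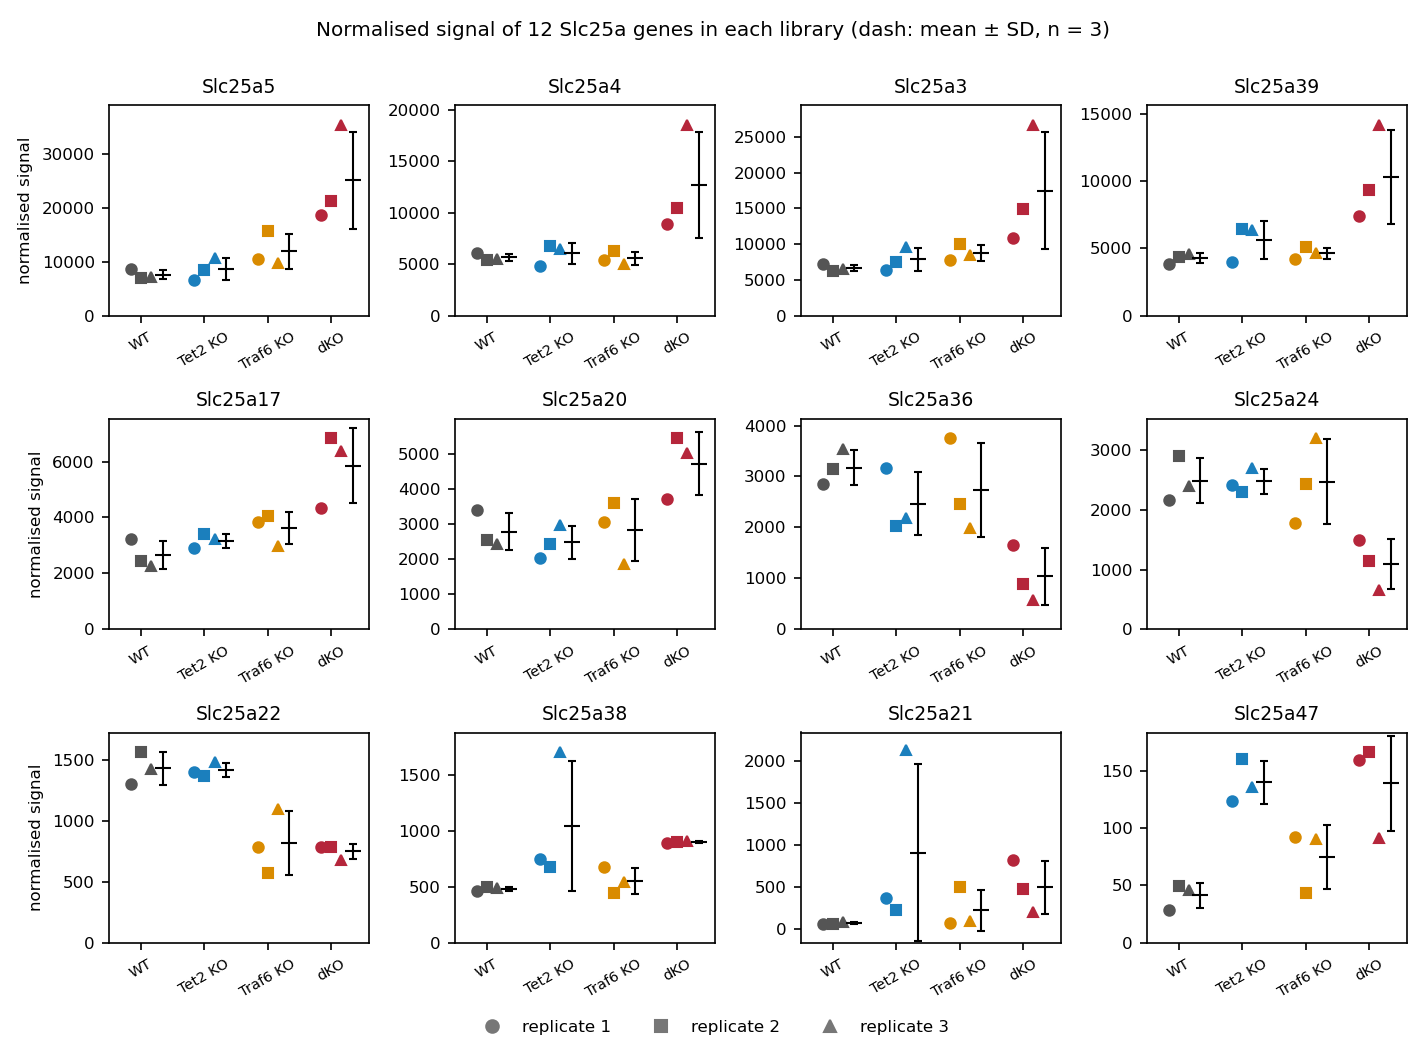
Normalised signal of 12 carriers in each library by genotype, with the mean ± SD (n = 3) as a dash and bar beside the points. The dKO points of Slc25a5, Slc25a4, Slc25a3, Slc25a39, Slc25a17 and Slc25a20 lie above all other libraries, those of Slc25a36 and Slc25a24 lie below them, and Slc25a21 and Slc25a38 have their highest value in Tet2 KO 3.

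The promoters of carriers called in all 3 dKO comparisons are shown for 3 that were higher and 1 that was lower, since the study is about MYC and the DNA letters CACGTG (the E-box) are the best-known MYC binding motif. They are RefSeq sequence of build GRCm38.p6, the 250 bases before the annotated start, written 5′ to 3′ on the gene's strand. Capitals mark an E-box, a CCAAT box (read as CCAAT) or a GC box (read as GGGCGG), on either strand.
Slc25a5 promoter (chrX:36795347-36795596, + strand): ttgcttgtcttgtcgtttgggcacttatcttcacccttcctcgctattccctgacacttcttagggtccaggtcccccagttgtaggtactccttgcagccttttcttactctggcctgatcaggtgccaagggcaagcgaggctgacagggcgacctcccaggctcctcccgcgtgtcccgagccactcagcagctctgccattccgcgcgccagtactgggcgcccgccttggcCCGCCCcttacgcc
Slc25a4 promoter (chr8:46211063-46211312, - strand): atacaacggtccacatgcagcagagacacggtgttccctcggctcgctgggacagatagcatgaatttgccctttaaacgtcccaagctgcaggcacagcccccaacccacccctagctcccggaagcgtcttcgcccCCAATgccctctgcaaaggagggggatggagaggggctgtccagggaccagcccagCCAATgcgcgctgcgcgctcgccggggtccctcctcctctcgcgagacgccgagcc
Slc25a39 promoter (chr11:102407518-102407767, - strand): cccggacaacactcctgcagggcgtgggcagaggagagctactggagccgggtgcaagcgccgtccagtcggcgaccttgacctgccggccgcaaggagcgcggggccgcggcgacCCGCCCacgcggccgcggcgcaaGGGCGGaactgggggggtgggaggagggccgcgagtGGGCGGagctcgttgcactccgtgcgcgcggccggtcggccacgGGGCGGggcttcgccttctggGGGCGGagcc
Slc25a36 promoter (chr9:97111042-97111291, - strand): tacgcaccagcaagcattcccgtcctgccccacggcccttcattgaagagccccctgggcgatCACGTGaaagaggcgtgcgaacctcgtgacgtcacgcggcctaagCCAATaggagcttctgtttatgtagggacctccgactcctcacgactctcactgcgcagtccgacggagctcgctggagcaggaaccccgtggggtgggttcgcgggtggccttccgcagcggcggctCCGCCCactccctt
Of these 4 windows only that of Slc25a36, a lower carrier, held an E-box, and those of Slc25a5, Slc25a39 and Slc25a36 held GC boxes. A RefSeq window was at hand for 34 of the 44 carriers, 43 windows in all because some have several starts. CACGTG was in 8 of the 43 (18.6%) against 6.02% of all 32851 mouse windows of this length, CCAAT in 46.5% against 33.8%, and GGGCGG in 69.8% against 32.7%. A motif of the factor NRF1 was in 0 of the 43 against 0.782%, and one of the ETS factors in 1 (2.33% against 2.88%). By the dKO against WT call, CACGTG stood in 1 of 11 windows of higher carriers, 1 of 9 of lower carriers and 5 of 19 of carriers not called. A match is only a run of letters and not a site of binding. Myc itself read 18778, 19732 and 19670.5 in WT and 27733, 28914 and 19627 in dKO.

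Of the 4 carriers of di- and tricarboxylates, 2 were higher in dKO against WT and 0 lower, and with the trend removed 1 and 0. Slc25a1, which exports citrate for fat synthesis, read 3431, 4079 and 4163 in WT, with Tet2 KO at 3166, 6008 and 5375, Traf6 KO at 3813, 4518 and 4292 and dKO at 4924, 6694 and 8396. The dKO libraries lay above WT, but Tet2 KO 2 and Tet2 KO 3 lay within their range. The log2 change was 0.75 ± 0.27, adjusted p = 0.0332 by limma, and the call was lost with the trend removed (0.21, adjusted p = 0.462) and when any library of the compared groups other than dKO 1 was left out.

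Slc25a21, which carries 2-oxoadipate and other oxodicarboxylates of lysine and tryptophan breakdown, read 58.2, 53.7 and 74.1 in WT, with Tet2 KO at 369, 225 and 2123, Traf6 KO at 61.8, 498 and 87.9 and dKO at 817, 466 and 193. It was low and even in WT, above WT in all Tet2 KO and dKO libraries, and uneven in Traf6 KO, where replicate 2 was high. The log2 change in dKO was 2.75 ± 0.86, adjusted p = 0.0187 by limma and 2.71, adjusted p = 0.0365 with the trend removed. The call was lost without WT 2 and without dKO 1. In Tet2 KO the log2 difference was of similar size with a large SE, 3.17 ± 0.86, adjusted p = 0.172 by limma, and adjusted p = 0.000681 by DESeq2 on recovered reads. Its highest value, in Tet2 KO 3, came from the library with the largest erythroid marker sum, 183572. In dKO 3, where that sum was 120008, Slc25a21 read 193, and its relation to the sum was not tested.

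The remaining carriers of organic acids were not called against WT. Slc25a11, the oxoglutarate-malate carrier of the malate-aspartate shuttle, read 5559, 5403 and 5143 in WT, with Tet2 KO at 4483, 6424 and 5521, Traf6 KO at 4090.0, 3735 and 4704 and dKO at 5259, 6882 and 9883. All Traf6 KO libraries were below WT, and it was called higher in dKO against Traf6 KO alone of the comparisons (0.77 ± 0.24, adjusted p = 0.0267 by limma, and 0.17, adjusted p = 0.492 with the trend removed), a call lost when any library of the compared groups other than dKO 1 was left out. Slc25a10, the dicarboxylate carrier, read 925, 1101 and 933 in WT, with Tet2 KO at 814 to 1236, Traf6 KO at 779.6 to 1322 and dKO at 1109, 1080.0 and 1028, a log2 difference of 0.12 ± 0.26 against WT.

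As deposited no amino acid carrier was higher in dKO, and 2 of 6 were lower than in WT. With the trend removed 1 was higher and 0 lower against WT. Slc25a22, a glutamate carrier, read 1298, 1565 and 1422 in WT, with Tet2 KO at 1402, 1364 and 1480.0, Traf6 KO at 782, 571 and 1096 and dKO at 784, 781 and 679. The 6 libraries of both genotypes labelled as lacking Traf6 all lay below the 6 others. The log2 change was -0.93 ± 0.26, adjusted p = 0.0105 in dKO against WT and -0.92 ± 0.26, adjusted p = 0.0184 against Tet2 KO by limma. In Traf6 KO against WT the log2 difference was -0.85 ± 0.26, the smallest adjusted p of any carrier in that comparison at 0.341, and dKO against Traf6 KO differed by -0.08 ± 0.26. With the trend removed the dKO against WT value was -0.46, adjusted p = 0.0795, and with lengths of the longest transcript in that removal the sign turned (0.56 against WT and 0.12 against Tet2 KO).

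Slc25a44, the carrier of branched-chain amino acids, read 1061, 1181 and 1159.9 in WT, with Tet2 KO at 1379, 815 and 1922, Traf6 KO at 695, 432 and 1084 and dKO at 1043, 267 and 359. The dKO libraries were below WT, dKO 1 only just. The log2 change was -1.28 ± 0.48, adjusted p = 0.0417 by limma, not called with the trend removed (-0.55, adjusted p = 0.294) and lost when any library of the compared groups other than dKO 1 was left out.

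The aspartate-glutamate carriers, the other arm of the malate-aspartate shuttle, were not called as deposited. Slc25a12 read 4910.1, 4584 and 5646 in WT, with Tet2 KO at 4808, 5891 and 5438, Traf6 KO at 4249, 6964 and 5879 and dKO at 7280.2, 5807 and 3696, and Slc25a13 read 2508, 2557 and 2313, 2226, 2833 and 2329.9, 2722, 2640.3 and 2733 and 2513, 1972 and 987 in the same order. Slc25a12 has the longest transcript of the family at 6351 nucleotides, and with the trend removed it was called higher in dKO against WT (1.44, adjusted p = 0.00827, against 0.10 ± 0.26 as deposited). The sign of the deposited value turned with equal library totals (-0.16) and without dKO 1 (-0.12). Slc25a15, the ornithine carrier of the urea cycle, read 1892, 2223 and 2406 in WT, with Tet2 KO at 1859.5, 1649 and 1838, Traf6 KO at 1734, 2639 and 2821 and dKO at 2560.0, 1166 and 504. The dKO values spanned a wide range, and the log2 difference of -0.92 ± 0.44, adjusted p = 0.0969 was not called. Slc25a29, a carrier of basic amino acids, stayed between 29.0 and 171 and was not called.

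Iron, glycine and glutathione carriers, the members tied to haem and iron-sulphur synthesis, gave 2 of 5 higher in dKO against WT and 0 lower. With the trend removed 1 was higher and 0 lower. Slc25a39, which imports glutathione, read 3832, 4344 and 4558 in WT, with Tet2 KO at 3949, 6433 and 6374, Traf6 KO at 4237, 5065 and 4616 and dKO at 7371, 9306 and 14190.3. The dKO libraries lay above the rest. The log2 change against WT was 1.23 ± 0.26, adjusted p = 0.00305 by limma and 0.73, adjusted p = 0.0114 with the trend removed. Against Traf6 KO Slc25a39 was also called with the trend removed (0.59, adjusted p = 0.0422), a call lost without dKO 2 and without dKO 3. Its relative Slc25a40 read 586, 516 and 481 in WT, with Tet2 KO at 778, 832 and 345, Traf6 KO at 635, 522 and 471 and dKO at 515, 266 and 297. It was not called (-0.61 ± 0.37, adjusted p = 0.183).

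Slc25a38, which brings glycine in for the initial step of haem synthesis, read 465, 496 and 487 in WT, with Tet2 KO at 748, 677 and 1714, Traf6 KO at 674, 447 and 539.6 and dKO at 894, 903 and 909.7. WT and dKO were each tight and did not overlap, and Tet2 KO 3 was the highest library. Against WT the log2 change came to 0.90 ± 0.33, adjusted p = 0.0379 by limma and 0.42, adjusted p = 0.336 with the trend removed. The mitoferrins import iron. Slc25a37 (mitoferrin 1, the form of red cell precursors) read 551, 661 and 656 in WT, with Tet2 KO at 681, 386 and 635, Traf6 KO at 701, 391 and 587 and dKO at 522, 421 and 354, and Slc25a28 (mitoferrin 2, the widespread form) read 459.8, 604 and 621, 599, 859 and 732, 515, 709 and 638 and 524, 719 and 974. Neither was called in any comparison, and both differences from WT turned with the trend removed (Slc25a37 from -0.54 to 0.37 and Slc25a28 from 0.36 to -0.25). Slc25a37 was at 635 in Tet2 KO 3, the library with the highest erythroid marker sum, and its relation to that sum was not tested.

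Among 9 tested carriers of cofactors, nucleotides and acylcarnitine, 2 were higher and 2 lower in dKO against WT, and with the trend removed 1 and 1. Slc25a17, which serves peroxisomes and not mitochondria and carries coenzyme A, FAD and NAD, read 3214, 2432 and 2274 in WT, with Tet2 KO at 2894, 3397 and 3218, Traf6 KO at 3837, 4052 and 2989 and dKO at 4325, 6846 and 6399.9. The dKO libraries lay above all others. By limma, its log2 change was 1.14 ± 0.24, adjusted p = 0.00254 and 0.51, adjusted p = 0.0599 with the trend removed. Slc25a20, the carnitine-acylcarnitine carrier of fat oxidation, read 3382, 2526 and 2438 in WT, with Tet2 KO at 2031, 2416 and 2977, Traf6 KO at 3049.6, 3582 and 1842 and dKO at 3706, 5447 and 5013. Its dKO libraries also lay above the rest, dKO 1 narrowly. This gave a log2 change of 0.76 ± 0.28, adjusted p = 0.0383 by limma and 0.18, adjusted p = 0.621 with the trend removed, and without WT 2, WT 3, dKO 2 or dKO 3 the call was lost.

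Slc25a36 and Slc25a33 both carry pyrimidine nucleotides for mitochondrial DNA and RNA. Slc25a36 read 2849, 3143 and 3532 in WT, with Tet2 KO at 3169.5, 2029 and 2179, Traf6 KO at 3754, 2454 and 1977 and dKO at 1648, 892 and 568, all 3 dKO libraries below the other 9. Its log2 change in dKO was -1.75 ± 0.36, adjusted p = 0.00244 by limma and -0.78, adjusted p = 0.0418 with the trend removed. The trend-removed call was lost without dKO 3. Slc25a33 read 323, 212 and 313 in WT, with Tet2 KO at 306, 299 and 413, Traf6 KO at 317, 463 and 327 and dKO at 461, 454 and 345. It was not called (0.58 ± 0.31, adjusted p = 0.133) although dKO and WT did not overlap. It shares 14.9% of its exonic bases with a gene on the opposite strand, from which an unstranded kit cannot tell it apart.

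Slc25a42, a coenzyme A carrier, was scarce, at 160.4, 171 and 169 in WT, with Tet2 KO at 180.4, 60.02 and 207, Traf6 KO at 101, 73.1 and 164 and dKO at 53.5, 92.6 and 5.36. WT was even and dKO low, but Tet2 KO 2 and Traf6 KO 2 were also low. For dKO against WT the log2 change was -2.40 ± 0.82, adjusted p = 0.0284 by limma, lost with the trend removed (-1.73, adjusted p = 0.114) and without any WT library or dKO 3. Slc25a32, which carries folate and FAD, read 1308, 1262 and 1404 in WT, with Tet2 KO at 998 to 1509, Traf6 KO at 1114 to 1369.7 and dKO at 1637, 1350.0 and 709.5. Its transcript of 5905 nucleotides is the second longest, and it was called higher in dKO against WT with the trend removed (0.93, adjusted p = 0.0175) but not as deposited (-0.19 ± 0.30, adjusted p = 0.631). Without dKO 2 the trend-removed call was lost (0.71, adjusted p = 0.0737 by limma).

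Slc25a16, linked to coenzyme A, read 1313, 1188 and 1294 in WT, with Tet2 KO at 1171, 1485 and 1608, Traf6 KO at 1641, 1556 and 1888 and dKO at 1492, 763 and 411. Traf6 KO was above WT throughout, and dKO was lower than Traf6 KO (-1.12 ± 0.36, adjusted p = 0.0309 by limma, -0.94, adjusted p = 0.0605 with the trend removed), a call lost without Traf6 KO 1, Traf6 KO 3, dKO 2 or dKO 3. Slc25a26, which carries the methyl donor S-adenosylmethionine, read 462, 343 and 409.7 in WT, with Tet2 KO at 358, 459.8 and 642, Traf6 KO at 370.2, 218 and 362 and dKO at 482, 458 and 711. It was not called.

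Of the 8 tested members with other or less settled substrates, 1 was higher and 1 lower in dKO against WT, and with the trend removed 0 and 0. Slc25a47, a carrier best known from liver, read 28.4, 49.1 and 46.2 in WT, with Tet2 KO at 123, 161 and 136, Traf6 KO at 91.9, 42.9 and 90.5 and dKO at 159.5, 167 and 91.1. Both Tet2 KO and dKO lay above WT without overlap. The log2 change in dKO was 1.72 ± 0.46, adjusted p = 0.00927 by limma and 1.08, adjusted p = 0.135 with the trend removed. In Tet2 KO the log2 difference was 1.77 ± 0.46, adjusted p = 0.158 by limma, the smallest adjusted p of any carrier in that comparison, and adjusted p = 0.00397 by DESeq2. Slc25a30, a relative of the uncoupling proteins, read 181, 210.2 and 147 in WT, with Tet2 KO at 177, 129 and 83.3, Traf6 KO at 126, 213 and 145 and dKO at 118, 28.7 and 51.8. Tested by limma, the log2 change was -1.64 ± 0.51, adjusted p = 0.0185, lost with the trend removed (-1.11, adjusted p = 0.101) and without WT 2 or dKO 2.

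The other 6 of that group were not called. Slc25a46, an outer-membrane member tied to mitochondrial fission, read 3665, 3932 and 3707 in WT, with Tet2 KO at 3608, 4609 and 3022, Traf6 KO at 3655, 3855 and 3550.1 and dKO at 3556, 2909 and 1676, with a log2 difference of -0.54 ± 0.27, adjusted p = 0.108 by limma, and 0.19 with the trend removed. Slc25a45 read 1849, 2005 and 1919.7 in WT, with Tet2 KO at 2305, 2840.3 and 1959, Traf6 KO at 1419.7, 1259 and 1509.7 and dKO at 1927, 1985 and 1882. Traf6 KO was below all other libraries for Slc25a45, at a log2 difference from WT of -0.47 ± 0.21, adjusted p = 0.626 by limma. Slc25a14, Slc25a27, Slc25a35 and Slc25a43 stayed between 31.3 and 801 in all libraries. Slc25a14 and Slc25a43 lie on the X chromosome, and Slc25a35 shares 31.3% of its exonic bases with Rangrf on the opposite strand.

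In the single knockouts the carriers with ranges clear of WT were few. In Tet2 KO 6 of 39 did not overlap WT (15.4%, against 19.2% of all tested genes): Slc25a21, Slc25a35, Slc25a38, Slc25a43 and Slc25a47 above and Slc25a15 below. In Traf6 KO it was 9 of 39 (23.1% against 20.7%), among them Slc25a3, Slc25a5, Slc25a13, Slc25a16 and Slc25a41 above and Slc25a11, Slc25a22 and Slc25a45 below. None of these passed the threshold by limma on all 12 libraries, although DESeq2 called Slc25a21 and Slc25a47 in Tet2 KO, and the shares lie near those of all genes. The median log2 difference over the 39 carriers was 0.09 in Tet2 KO (0.02 for all tested genes) and -0.03 in Traf6 KO (-0.03). In dKO against WT the carriers' median was 0.23 (-0.09 for all tested genes) as deposited and 0.06 (0.07) with the trend removed.

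Ratios within pairs of related carriers were compared next, because a library's size factor cancels in them. The log2 ratio of Slc25a5 over Slc25a4 was 0.50, 0.38 and 0.37 for WT and 0.45, 0.33 and 0.73 for Tet2 KO. It was 0.96, 1.32 and 0.94 for Traf6 KO and 1.06, 1.02 and 0.93 for dKO. The 6 libraries labelled as lacking Traf6 were all above the 6 others. With the trend removed the Traf6 KO ratios were 0.96, 1.16 and 1.17 against 0.51, 0.61 and 0.63 in WT, while dKO gave 0.96, 0.78 and 0.14, so the separation held for Traf6 KO and not for dKO. Slc25a5 is X-linked and Xist was high in Traf6 KO but low in dKO, and its part in the ratio was not tested.

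The ratio of Slc25a39 over Slc25a40 was 2.71, 3.07 and 3.24 in WT and 3.84, 5.12 and 5.58 in dKO, and the dKO libraries stayed above WT with the trend removed (3.84, 4.86 and 4.76 against 3.10, 3.16 and 3.42). For the pyrimidine nucleotide carriers, Slc25a33 over Slc25a36 was -3.14, -3.88 and -3.49 in WT and -1.84, -0.97 and -0.72 in dKO, and with the trend removed -2.66, -3.36 and -2.93 against -2.18, -1.92 and -2.08. The mitoferrin ratio, Slc25a28 over Slc25a37, was -0.26, -0.13 and -0.08 in WT and 0.01, 0.77 and 1.46 in dKO, and with the trend removed it turned, from 0.15, 0.39 and 0.53 in WT to -0.30, -0.24 and -0.24 in dKO.

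The aspartate-glutamate pair, Slc25a13 over Slc25a12, went from -0.97, -0.84 and -1.29 in WT to -1.53, -1.56 and -1.90 in dKO, and with the trend removed from -0.68, -0.37 and -0.80 to -1.99, -2.34 and -2.43. As deposited it was the pair in which the longer partner gained, and with the trend removed the mitoferrin pair also moved toward its longer partner. Slc25a24 over Slc25a25, of nearly equal length, averaged 1.74 ± 0.50 (SD, n = 3) in WT and 1.63 ± 0.83 in dKO. A two-sided exact permutation test of dKO against WT gave p = 0.1 for the first 5 pairs, the smallest that 3 against 3 libraries allow (0.12 after Benjamini-Hochberg adjustment over the 6 pairs), and p = 0.8 for the last.

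**Figure D4:**
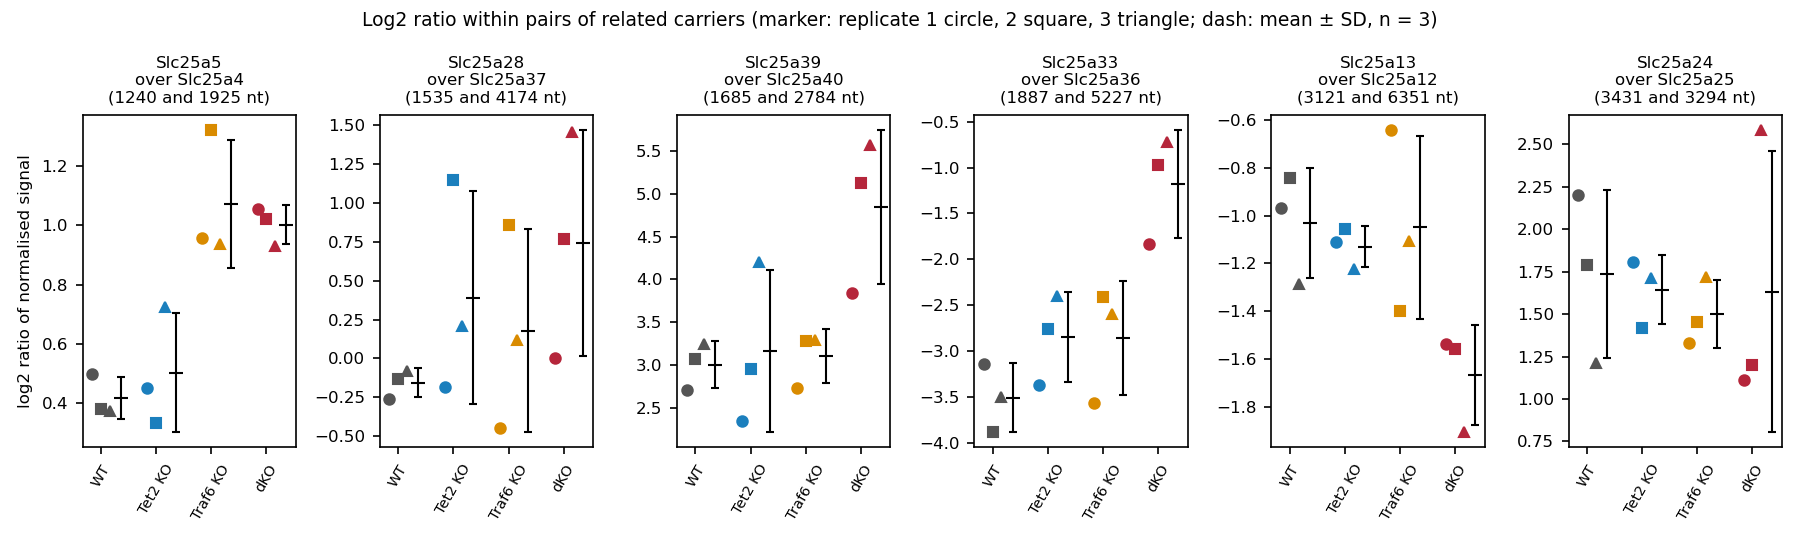
Log2 ratio of normalised signal within 6 pairs of related carriers by genotype, with points for libraries and a dash and bar for the mean ± SD (n = 3); transcript lengths are above each panel. Slc25a5 over Slc25a4 averages 0.42 for WT and 0.50 for Tet2 KO against 1.07 for Traf6 KO and 1.003 for dKO, while the next 3 panels are highest on average in dKO.

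Other genes of mitochondrial transport were read beside the carriers. Of all tested genes 21.9% were higher and 26.5% lower in dKO against WT, and 14.7% and 10.7% with the trend removed. Among all tested genes of at most 2000 nucleotides 51.6% were higher as deposited. Whether transcript length has a part in the counts of these lists was not tested. Of the carriers of the same fold with other names, 2 of 3 tested were higher in dKO against WT and 0 lower. These were the uncoupling protein Ucp2, at 13699, 15328 and 19409 in WT and 25399, 34327 and 53387 in dKO (1.17 ± 0.30, adjusted p = 0.00749 by limma), and the outer-membrane insertase Mtch2, at 2928 to 4051 and 5857 to 8582 (0.996 ± 0.23, adjusted p = 0.00450). Ucp2 has a transcript of 3988 nucleotides and was called higher both as deposited and with the trend removed (2.20, adjusted p = 0.00177). Ucp1 had no read.

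The import machinery threads carriers through the outer membrane and into the inner one. Of its 8 tested genes 6 were higher in dKO against WT and 0 lower, and 5 were higher with the trend removed. The share of all tested genes called higher was 21.9%, and 14.7% with the trend removed. The smallest p belonged to the pore Tomm40 (1.23 ± 0.29, adjusted p = 0.00519), the receptor Tomm22 (1.41 ± 0.34, adjusted p = 0.00583) and the chaperone Timm10 (1.91 ± 0.52, adjusted p = 0.00941), all by limma. These and the single-gene values that follow are from the deposited scale. Of 17 tested genes of other mitochondrial solute and ion transport 5 were higher and 2 lower, and 5 and 1 with the trend removed. The higher ones included the outer-membrane channel Vdac2 (1.20 ± 0.24, adjusted p = 0.00203), the outer-membrane protein Tspo (2.18 ± 0.46, adjusted p = 0.00284) and the serine carrier Sfxn1 (1.05 ± 0.25, adjusted p = 0.00514), and the lower ones included the transporter Abcb10 (-1.50 ± 0.52, adjusted p = 0.0307). Of 9 haem synthesis genes 4 were higher and 0 lower (2 and 0 with the trend removed), among the 4 Alas1, which makes aminolevulinic acid from the glycine that Slc25a38 imports (1.07 ± 0.28, adjusted p = 0.00749). None of these lists had a gene called in Tet2 KO or Traf6 KO against WT.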

How the data were processed

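RNA of sorted LSK cells was sequenced in 12 libraries, 3 of each of 4 genotypes, grouped by the genotype label. The authors deposited 1 table of normalised signal per gene and library. STAR, featureCounts, DESeq2 and bcl2fastq are the tools, and mm10 and GRCm38 the builds, in the submitters' processing notes; their versions and the strand setting are not given in the sources used here. When a library's values were divided by the worth of 1 read (0.518 to 1.79), 100% came out whole (tolerance 1e-06), which recovered the reads. PCR copies are not independent molecules, so depth sets a limit on counting error only.

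Values were tested on the log2(value + 1) scale by limma 3.58.1 in R 4.3.3 (eBayes with trend and robust options), for genes at 10 or more in at least 3 libraries, on all 12 libraries as 4 groups without covariates. Adjusted p-values are Benjamini-Hochberg values over all tested genes of a comparison, and log2 changes of scarce genes are understated. No label states that each library is a separate animal, and p-values therefore reflect the spread among these libraries, possibly technical. The length and GC trend was a loess curve (span 0.5) of each library's deviation from the gene means on length and GC content of the principal transcript in GENCODE M21 (GRCm38), known for 97.4% of tested genes. Promoter windows came from RefSeq. Values in every library are given by role for the main carriers, and per comparison for the 4 largest rises and falls where the higher group averaged at least 50. Some genes enter the counts and are not reported here by name. The members and gene lists were chosen with earlier results of these data known. Alternatives were a pseudocount of 5, no filter, equal library totals, a replicate block, the compared groups alone, edgeR 4.0.16 and DESeq2 1.42.0 on recovered reads, the trend removal, and each library left out. Trend removal with the longest transcript, or with each dKO library left out, was added after seeing the data. The fits were also run on simulated counts in which all dKO libraries had the same length trend. The observed length difference was uneven among the dKO libraries, so that run does not test the trend removal in such a setting.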

Additional observations from a re-analysis of the deposited data

How the results depend on the processing

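In dKO against WT, the replicate block kept 17 of 18 calls, a pseudocount of 5 kept 18, equal totals 15, edgeR 14, DESeq2 17, the compared groups alone 12 and trend removal 7. Against Tet2 KO and against Traf6 KO, the compared groups alone kept 0 of 12 calls each and trend removal 2 and 4. Counts called higher and lower that moved by more than 1.5 times were as follows. With the compared groups alone, Tet2 KO against WT gave 2 higher, dKO against WT 3 lower, and dKO against Tet2 KO and against Traf6 KO 0 in both directions. DESeq2 gave 2 higher in Tet2 KO. With the trend removed the counts were 7 and 2, 1 and 1, and 3 and 1 in dKO against WT, Tet2 KO and Traf6 KO, and with the replicate block added 7 and 1, 1 and 0, and 3 and 0. With the longest transcript there were 2 lower, 2 higher and 1 lower, and 3 higher in the same order. Equal totals gave 3 higher against Tet2 KO and 4 higher against Traf6 KO. Without a filter there were 3 lower against Tet2 KO, and 5 higher and 2 lower against Traf6 KO. edgeR gave 2 lower against Traf6 KO, where it called 19.4% of its tested genes lower. Shares of all tested genes were not computed for the compared groups alone, the replicate block, the longest transcript, equal totals or no filter. Those counts show only how far the calls depend on the fit.

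Leaving out each library gave 7 to 11 higher and 3 to 12 lower against WT, 1 to 9 higher and 0 to 13 lower against Tet2 KO, 2 to 10 higher and 1 to 9 lower against Traf6 KO, and 0 to 2 higher and 0 to 3 lower in the interaction. For fits with a library left out, the shares of all tested genes were not computed. With the trend removed and each dKO library left out, the counts were 3 to 8 higher and 0 to 5 lower against WT, 0 to 2 higher and 0 to 5 lower against Tet2 KO, 0 to 3 higher and 0 to 6 lower against Traf6 KO, and 0 higher and 0 to 1 lower in the interaction.

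Trend removal turned the sign of 8 of the 39 carriers against WT, 7 against Tet2 KO and 10 against Traf6 KO, none of them called as deposited. Among the carriers followed under each alternative, the direction turned in 4. Against WT, Slc25a12 gave -0.16 with equal totals and -0.12 to 0.37 with 1 library left out, and Slc25a22 gave 0.56 with the longest transcript. Slc25a32 gave 0.93 with the trend removed, with or without the replicate block, 0.78 with the longest transcript, 0.85, 0.71 and 1.23 with the trend removed and without dKO 1, 2 and 3, and -0.43 to 0.17 as deposited with 1 library left out. Slc25a22 against Tet2 KO gave 0.12 with the longest transcript, and Slc25a17 against Traf6 KO gave -0.0053 with it and -0.082 with the trend removed and without dKO 2. Equal totals moved the median of all genes by -0.25, -0.25 and -0.18 in the dKO comparisons. The causes were not tested. Deviations of same-numbered libraries from their genotype means correlated at -0.18 to 0.19. This gave no sign that the numbers pair the libraries, but means of 3 libraries are too few to exclude it. Slc25a41 and Slc25a42 rest on few reads.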
